A study of Mus musculus with 32 samples.

Results

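The nuclear subunits of respiratory complex I were taken as all gene symbols made of Nduf, one of the letters a, b, c, s or v, a number and an optional last letter, in the authors' deposited tables of 5 mouse organs. This rule gave 41 of 55289 named genes. Of the 41, 36 had an adjusted p in every table and are called tested there, and Ndufb8 had one in all but the spleen table. Ndufb11b had no adjusted p in any table, and Ndufa13, Ndufb4c and Ndufs6b had a mean of 0 in all 5. In the RefSeq annotation Ndufa11b is a transcribed pseudogene and Ndufs6b a pseudogene. Reads of Ndufa11b and its parent gene Ndufa11 may be split between the pair, so both values are uncertain. The acyl carrier subunit Ndufab1 is not matched by the rule, and Ndufa4 is matched although later work assigned its protein to complex IV.

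The samples came from 14 male mice aged 4 months, in 32 libraries. Brain, heart, kidney and liver of the same 6 mice gave 3 Ftsj1_DF libraries (Ftsj1-deficient) and 3 WT libraries (wild type) per organ, and some of these mice are brothers by the labels. Spleen came from 8 other mice, 4 Ftsj1_DF and 4 WT. The allele behind the deficiency and the strain are not described in the labels used here, and each library holds whole tissue, so a change in the number of cells of a type and a change in the RNA of each cell cannot be told apart. FTSJ1 is a methyltransferase that acts on the anticodon loop of transfer RNAs. The assay, degradome sequencing, starts from 5 µg of total RNA. It ligates an adapter to poly(A) RNA molecules that have no cap and reads a short tag at their 5′ ends. For a nuclear gene a value thus counts decay or cleavage ends of its RNA and is not the level of its intact messenger RNA. That reading is not carried over to genes of mitochondrial DNA.

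Complex I, NADH:ubiquinone oxidoreductase, is the L-shaped entry point of the mitochondrial respiratory chain. Its matrix arm takes electrons from NADH at the N module and passes them along iron-sulfur clusters to ubiquinone at the Q module, and its membrane arm pumps protons. Core subunits carry out this chemistry and are encoded partly in the nucleus and partly in mitochondrial DNA, while accessory subunits surround them and serve assembly and stability. Heart and kidney tubules are known for dense mitochondria.

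Each deposited table gives 1 mean per gene over all libraries of an organ, a log2 fold change with its standard error, a p and an adjusted p. No values per library are in these tables, so the spread of single mice and the overlap of the genotypes are not analysed here. Which genotype is on top of the fold change is not given in the tables. It is read here as Ftsj1_DF over WT, because the log2 fold change of Ftsj1 was negative in all 5 of the authors' deposited tables, from -1.56 ± 0.61 in kidney (SE) to -3.38 ± 0.59 in the liver-named table. Ftsj1 passed an adjusted p of 0.05 in 3 of them, at 1.75e-09 (brain-named), 1.76e-04 (liver-named) and 0.0261 (spleen), and not in kidney (0.202) or heart (0.594). The sums of the means lay between 48536401 and 73405489 normalized tags per table. The tables named brain and liver went against their markers. Hepatocyte markers made up 24.0% of the sum in the table named brain and 0.271% in the table named liver, and neuron markers made up 0.00175% and 0.301%. These tables are called brain-named and liver-named throughout.

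The members' tags were most frequent in heart. Their summed mean was 2.83% of the table's sum in heart, 1.25% in kidney, 0.484% in the liver-named table, 0.437% in the brain-named table and 0.316% in spleen. Without the 20 highest genes of each table the shares were 2.13% in heart, 0.971% in kidney, 0.744% in the brain-named table, 0.494% in spleen and 0.525% in the liver-named table, so the brain-named and liver-named tables changed places. The genes left out included 2 members in heart, 1 in kidney and 0 in each other table. These members were taken out of the members' sum as well. These tables were normalized separately, so levels across them are descriptions with no test. Of the 37 members tested in at least 1 table, 26 had their highest share in heart, 7 in kidney, 3 in the liver-named table and 1 in spleen. The lowest share was that of spleen for 18, of the brain-named table for 16 and of the liver-named table for 3.

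Among the electron input subunits, the order differed between genes. Ndufs1, the largest core subunit, which holds iron-sulfur clusters, stood at 28.3 tags per 1000000 tags of the table (ppm) in kidney, 8.97 in the brain-named table, 5.94 in the liver-named table, 4.45 in heart and 1.64 in spleen. Ndufv1, which binds NADH and the flavin, also had its highest share in kidney, at 651 ppm, against 417 in heart. Ndufv2, its iron-sulfur partner, had 482 ppm in heart and 327 in kidney. Among the 3 genes, only Ndufv2 was thus highest in heart.

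Several accessory subunits were far more frequent in heart than in the next table. Ndufb10, a disulfide-bonded subunit of the distal arm, had 6226 ppm in heart, 5.23 times its share in kidney. Ndufb7, another subunit of that kind facing the intermembrane space, was 4.05 times as frequent in heart as in kidney, and Ndufa10, which has a fold like nucleoside kinases, 3.25 times. Ndufa5 of the Q module was 4.42 times as frequent in heart as in kidney. Ndufa11b stood 6.36 times as high in heart as in the liver-named table, with the reservation about its parent gene. Accessory subunits with their highest share outside heart were Ndufb3, Ndufc1, Ndufv3, Ndufs4 and Ndufa6 in kidney, Ndufb4 and Ndufb8 in the liver-named table and Ndufa12 in spleen. Ndufb3 had 249 ppm in kidney and 62.0 in heart, and Ndufc1 had 1006 ppm in kidney and 545 in heart. Ndufs4, Ndufa6 and Ndufa12 differed little from heart, as with 6.78 ppm in spleen and 6.68 in heart for Ndufa12.

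**Figure D1:**
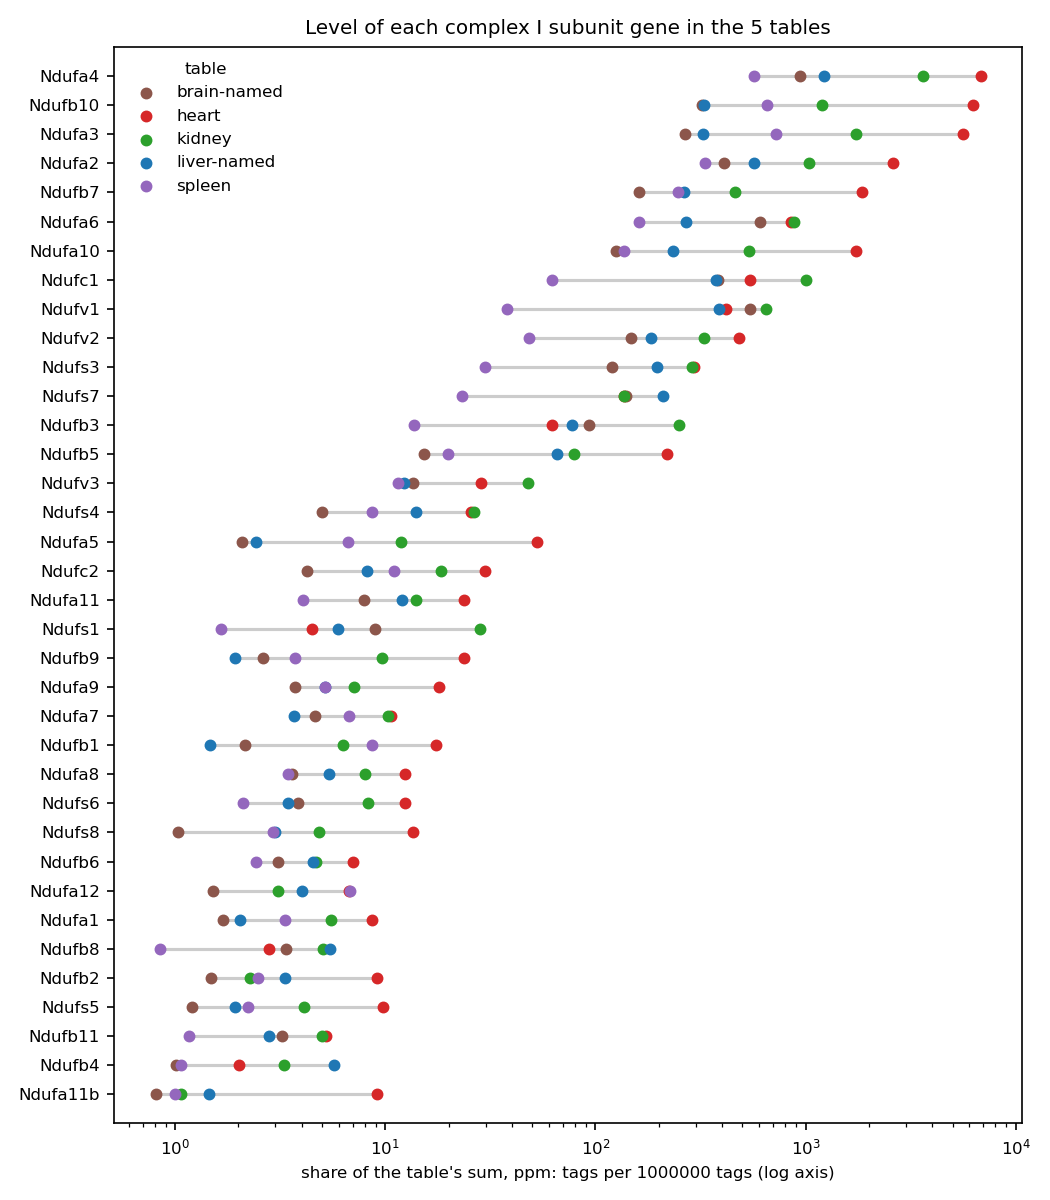
Share of each of 36 members tested in at least 1 table (rows) in the 5 tables (coloured points), in ppm (tags per 1000000 tags of the table) on a log axis; grey lines join the lowest and highest table. The heart points lie at the right end for 25 of them, and the spleen or brain-named points at the left end for 33; 1 tested member, counted in the text, is not drawn.

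In the brain-named table, 33 of 37 tested members had a positive log2 fold change, Ftsj1_DF over WT, against 53.3% of all tested genes, and the members' median was 1.01 against 0.04 over all tested genes. At an unadjusted p under 0.05, 19 members were higher in Ftsj1_DF and 0 were lower, where 8.03% of tested genes were higher and 2.82% lower. No member reached an adjusted p of 0.05 in the authors' DESeq2 test, against 0.414% of tested genes, so no single subunit is called changed. At an adjusted p of 0.10, 3 members were higher in Ftsj1_DF, where 0.732% of tested genes were. None of these 3 stayed under 0.10 once the Wald statistic was rescaled by its robust spread over all tested genes.

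Within the N module, 8 of 10 tested members were positive, 5 of them at an unadjusted p under 0.05, with a median log2 fold change of 0.93. Ndufa6, a small LYR-motif subunit that holds the acyl carrier protein, had the smallest p of all members. It was 2.96-fold higher in Ftsj1_DF in the authors' deposited brain-named table, with a 95% interval of 1.63 to 5.39 and an adjusted p of 0.0705. Ndufs6, a zinc-binding subunit that joins late in assembly, had a log2 fold change of 1.54 ± 0.49 in the authors' deposited table (adjusted p = 0.118). The iron-sulfur subunit Ndufv2 stood at 1.35 ± 0.48 there, with a deposited adjusted p of 0.181. Its partner Ndufv1 lay on the other side of 0, at -0.41 ± 0.45 in the authors' deposited table, the lowest value of all members. The third core subunit of the module, Ndufs1, had 0.79 ± 0.53 in the authors' deposited table. Ndufs4, the accessory subunit whose loss in mice gives a model of Leigh syndrome, stood at 0.76 ± 0.44 in the deposited table.

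The Q module had the lowest median of the 4 groups of subunits, 0.41, with 5 of 6 positive and 2 at an unadjusted p under 0.05. Those 2 were Ndufa5, at 1.54 ± 0.58 in the authors' deposited brain-named table, and the core subunit Ndufs8, which carries iron-sulfur clusters, at 1.01 ± 0.47 in the deposited table. Ndufs7, a core subunit beside the ubiquinone site, had a log2 fold change of -0.29 ± 0.50 in the authors' deposited table. Ndufs3, another core subunit of this module, stood at 0.53 ± 0.50 in the deposited table. Over the 7 nuclear core subunits, 5 were positive, 2 at an unadjusted p under 0.05, and the median was 0.53.

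All 8 tested subunits of the proximal membrane arm were positive in the brain-named table, 5 at an unadjusted p under 0.05, with a median of 1.06. The X-linked Ndufa1, a small membrane subunit needed for assembly, had the highest log2 fold change of all members, 1.87 ± 0.63 in the authors' deposited table (adjusted p = 0.152), on a mean of 124 normalized tags. Ndufa10 was nearest the threshold from inside, at 0.70 ± 0.35 in the deposited table (unadjusted p = 0.0493). In the distal arm 10 of 11 were positive, 6 at an unadjusted p under 0.05, and the median was 1.04. Ndufb3 led this arm and was 3.22-fold higher in Ftsj1_DF in the authors' deposited table, with a 95% interval of 1.66 to 6.22 and an adjusted p of 0.0800. Ndufb1 was 2.83-fold higher in the deposited table, with a 95% interval of 1.29 to 6.20 and an adjusted p of 0.238. Ndufb7, with the next smallest p of the arm after Ndufb3, had a deposited log2 fold change of 1.29 ± 0.43 (adjusted p = 0.146). Ndufb2, at -0.20 ± 0.50 in the authors' deposited table, was the single negative member of the arm, and Ndufb11 lay just outside the threshold (unadjusted p = 0.0521). Outside the 4 groups, Ndufa4 had 1.62 ± 0.48 in the authors' deposited table (adjusted p = 0.0927).

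**Figure D2:**
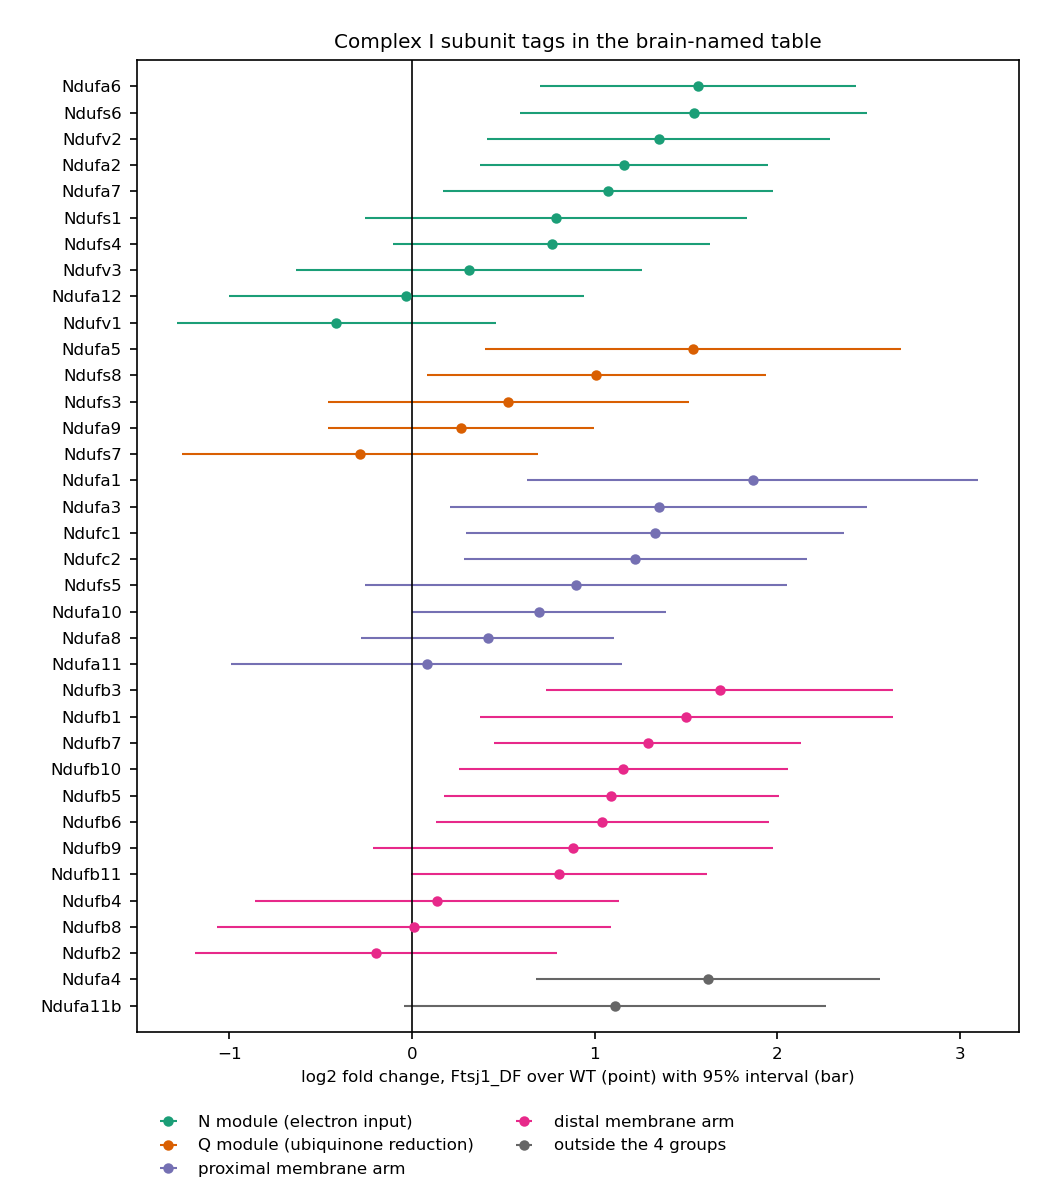
Log2 fold change, Ftsj1_DF over WT, of 36 tested members in the brain-named table (points) with 95% intervals from the authors' standard errors (bars), coloured by structural group. Points of 32 members lie right of 0, and the 4 left of it are Ndufa12, Ndufv1, Ndufs7 and Ndufb2; 1 tested member, counted in the text, is not drawn.

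Markers of other cells had fold changes of both signs in that table. All 6 tested markers of pancreatic acinar cells were positive, with a median log2 fold change of 3.95 and 1 at an adjusted p under 0.05, and their summed mean was 0.302% of the table's sum, with 1 listed marker at 0. All 6 tested macrophage markers were positive as well, with a median of 0.72, 2 at an adjusted p under 0.05, and a summed mean of 0.0196% of the sum. The 8 hepatocyte markers were all positive at a median of 0.40, and those of proximal tubule (7 of 8 tested), cardiomyocytes (5 of 6), neurons (4 of 6) and B cells (3 of 5) had medians of 0.48, 0.39, 0.14 and 0.08. Adrenal cortex markers were positive in 0 of 3 tested cases, with a median of -0.82 and 1 lower at an adjusted p under 0.05. Adipocyte markers were positive in 1 of 3, with a median of -1.34, and skeletal muscle markers in 1 of 2, with a median of -0.27. The part of these cells in the members' fold changes was not tested.

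Other genes of the respiratory chain and of translation also had positive medians in the brain-named table. Of the 7 complex I subunits encoded in mitochondrial DNA, 6 were positive, 3 at an unadjusted p under 0.05, with a median of 0.68. The 3 were mt-Nd1, mt-Nd2 and mt-Nd3, at 1.18 ± 0.43, 1.40 ± 0.45 and 1.54 ± 0.58 in the authors' deposited table, and mt-Nd6, the one transcribed from the opposite strand, stood at -0.25 ± 0.30 in it. Whether the tags of these mitochondrial genes are decay ends or ends of intact RNA cannot be told from the values. Assembly factors of complex I, which build the enzyme and leave it, were positive in 12 of 16 tested cases, with a median of 0.39. The 3 at an unadjusted p under 0.05 were Ndufaf2, Ndufaf4 and Ndufaf5, at 1.26 ± 0.60, 0.86 ± 0.33 and 0.97 ± 0.43 in the authors' deposited table. Nuclear subunits of complexes II to V were positive in 34 of 41 cases, 18 at an unadjusted p under 0.05, with a median of 0.66. Cytosolic ribosomal proteins were positive in 59 of 66, 31 at an unadjusted p under 0.05 and 1 at an adjusted p under 0.05, with a median of 0.88. Mitochondrial ribosomal proteins were positive in 63 of 70, 16 at an unadjusted p under 0.05, with a median of 0.50. The share of positive members, 89.2%, thus lay beside 89.4% for cytosolic and 90.0% for mitochondrial ribosomal proteins, and the direction was not particular to complex I.

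**Figure D3:**
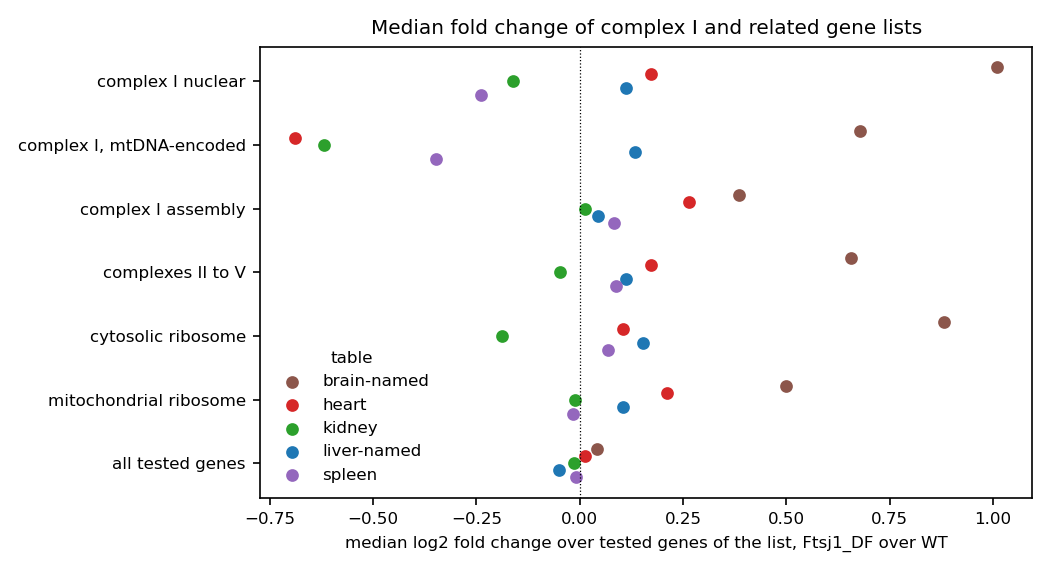
Median log2 fold change, Ftsj1_DF over WT, of the tested genes of each list (rows) in the 5 tables (coloured points). In the brain-named table every list lies right of all tested genes, and in heart, kidney and spleen the genes encoded in mitochondrial DNA lie left of 0.

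Nuclear respiratory factor 1 (NRF1) and YY1 are transcription factors known to bind promoters of many respiratory chain genes, and their motifs were searched in the members' promoters because the members lay on one side of 0 in the brain-named table. RefSeq windows (build GRCm38.p6) from 250 bases before to 50 after the start were found for 33 of the 41 members. The NRF1 motif (GCGCA, any base, GCGC, on either strand) lay in 7 of 33 windows (21.2%), against 4.78% of 27025 windows of all genes and 8.69% of 12059 windows of genes tested in the brain-named table. The YY1 motif ATGGCGGC lay in 6 (18.2%), against 2.38% and 4.21%. The ETS motif CCGGAAG lay in 4 windows (12.1%), the SP1 motif GGGCGG in 14 (42.4%) and TATAAA in 4 (12.1%), against 15.3%, 58.0% and 8.45% of windows of tested genes. Both strands were searched, and matches of different motifs were counted separately, overlapping or not. These are matches of letters and do not show that a factor binds.

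The 7 NRF1 matches are shown because they carry the motif share above, each as 30 bases in gene orientation, 5′ to 3′, with the motif in capitals. They lie at chr15:82354249-82354278 (minus strand) for Ndufa6, chr13:73328479-73328508 (minus) for Ndufs6, chr6:24527697-24527726 (minus) for Ndufa5, chr4:123718265-123718294 (minus) for Ndufs5, chr2:36049349-36049378 (minus) for Ndufa8, chr16:37654540-37654569 (minus) for Ndufb4 and chr17:56717692-56717721 (plus) for Ndufa11. The match of Ndufa6 lies after the annotated start and the other 6 before it, and the window of Ndufb4 holds 3 matches, of which the first is shown.
Ndufa6: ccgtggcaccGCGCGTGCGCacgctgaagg
Ndufs6: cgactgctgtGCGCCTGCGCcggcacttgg
Ndufa5: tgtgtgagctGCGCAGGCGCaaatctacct
Ndufs5: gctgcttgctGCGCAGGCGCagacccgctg
Ndufa8: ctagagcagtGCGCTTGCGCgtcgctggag
Ndufb4: gagaagcagtGCGCACGCGCagaatacgcg
Ndufa11: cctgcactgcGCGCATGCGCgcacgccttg

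The YY1 match is shown for 3 of the 6 members that hold it, Ndufs6, Ndufs4 and Ndufs7, whose fold changes are given above. They lie at chr13:73328433-73328462 (minus) for Ndufs6, chr13:114388045-114388074 (minus) for Ndufs4 and chr10:80249465-80249494 (plus) for Ndufs7, all after the annotated start. Ndufs6 is the one member with both motifs.
Ndufs6: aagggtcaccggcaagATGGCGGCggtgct
Ndufs4: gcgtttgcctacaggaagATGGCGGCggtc
Ndufs7: ccgaggccaagATGGCGGCgctggcgggtg
The 7 members with an NRF1 match were all positive in the brain-named table, with a median log2 fold change of 0.90, and 21 of the 25 tested members with a window and no match were positive, with a median of 1.04. For YY1 the counts were 5 of 6 with a match, at a median of 0.92, and 23 of 26 without, at 1.03. Members with these letters in the promoter therefore had medians below those of members without them, and the difference was not tested.

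In heart, 26 of 37 tested members were positive, against 51.1% of all tested genes and 66.2% of those with a mean of at least 1000 normalized tags, and the median was 0.17. One member, Ndufc2, a proximal arm subunit, had an unadjusted p under 0.05, where 4.76% of tested genes were higher in Ftsj1_DF and 5.87% lower. Its log2 fold change was 0.49 ± 0.23 in the authors' deposited heart table. No member reached an adjusted p of 0.05 in the authors' DESeq2 test, against 1.19% of tested genes (smallest 0.414). The core subunits lay lower than the accessory ones, with 2 of 7 positive and a median of -0.30, and this split was not tested. Ndufs1 was the lowest member at -0.77 ± 0.42 in the authors' deposited table, followed by Ndufv1 at -0.69 ± 0.37 and Ndufc1 at -0.61 ± 0.51. The highest were Ndufa7 and Ndufb11, at 0.55 ± 0.32 and 0.54 ± 0.28 in the deposited table, and Ndufa5 stood at 0.47 ± 0.25. Further core subunits stood at 0.42 ± 0.25 (Ndufs8), -0.28 ± 0.24 (Ndufv2), -0.30 ± 0.30 (Ndufs3) and -0.36 ± 0.36 (Ndufs7) in the deposited table.

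The 7 subunits from mitochondrial DNA were all negative in heart, 6 at an unadjusted p under 0.05, with a median of -0.69. Mt-Nd3 fell by 1.10 ± 0.24 on the log2 scale in the authors' deposited heart table (adjusted p = 0.00175), and mt-Nd4l and mt-Nd2 stood at -1.23 ± 0.44 and -1.13 ± 0.36 (adjusted p = 0.169 and 0.0932). The nuclear subunits' median of 0.17 in heart was 0.05 once centred on genes with means of 1000 or more, and 2 members then had an unadjusted p under 0.05, both lower in Ftsj1_DF. The share of all tested genes at that level after this centring was not computed. All 7 subunits from mitochondrial DNA were negative in kidney too, with a median of -0.62, and in spleen, with a median of -0.35, and 4 of 7 were positive in the liver-named table. Among the assembly factors, Ndufaf1 and Ndufaf6 came nearest to the threshold in heart, at 1.30 ± 0.38 (adjusted p = 0.0539) and -1.20 ± 0.38 (adjusted p = 0.0836) in the authors' deposited table.

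In kidney, 14 of 37 tested members were positive, against 49.1% of tested genes, with a median of -0.16. At an unadjusted p under 0.05, 1 member was higher in Ftsj1_DF and 3 were lower, where 6.24% of tested genes were higher and 5.67% lower. None reached an adjusted p of 0.05 in the authors' DESeq2 test, against 2.07% of tested genes (smallest 0.158). The lower ones included Ndufs4 and Ndufs6, both accessory subunits of the N module. Ndufs4 was 0.501-fold in Ftsj1_DF relative to WT in the authors' deposited kidney table, with a 95% interval of 0.303 to 0.830 and an adjusted p of 0.158. Ndufs6 was the lowest member, at a deposited log2 fold change of -1.60 ± 0.62 (adjusted p = 0.190). In the same deposited table Ndufa1 stood at -0.85 ± 0.63 and Ndufb7 at -0.45 ± 0.22. The highest member was the distal arm subunit Ndufb4, at 1.17 ± 0.51 in the authors' deposited table (adjusted p = 0.277), followed by Ndufb11 at 1.05 ± 0.69 and Ndufa12 at 0.37 ± 0.64. The 7 core subunits had a median of 0.06, and among them Ndufs7 stood at -0.24 ± 0.27 and Ndufv1 at 0.25 ± 0.32 in the deposited table.

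In the liver-named table, 24 of 37 tested members were positive, against 47.1% of tested genes and 59.6% of those with a mean of at least 1000, with a median of 0.11. The number of positive members was 18 once the fold changes were centred on the genes with a mean of at least 1000. No member had an unadjusted p under 0.05, where 4.48% of tested genes were higher in Ftsj1_DF and 5.88% lower, and none an adjusted p of 0.05 in the authors' DESeq2 test, against 0.203% of tested genes. Extremes were Ndufs7, the subunit beside the ubiquinone site, at -1.11 ± 0.64 and Ndufb5 of the distal arm at 0.92 ± 0.55 in the authors' deposited table. Ndufv1, the NADH-binding subunit, was again among the lowest, at a deposited value of -0.94 ± 0.66, followed by Ndufb8 at -0.72 ± 0.63. After Ndufb5, the highest were Ndufa4 at 0.66 ± 0.46 and the LYR-motif subunit Ndufb9 at 0.48 ± 0.61 in the authors' deposited table. Of the other core subunits, Ndufs1 stood at -0.35 ± 0.49 and Ndufs3 at 0.31 ± 0.52 in the authors' deposited table.

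In spleen, 16 of 36 tested members were positive, against 49.5% of tested genes and 68.5% of those with a mean of at least 1000, with a median of -0.24. Centred on those abundant genes the members' median was -0.41, and 2 members had an unadjusted p under 0.05, both lower in Ftsj1_DF. The share of all tested genes at that level after this centring was not computed, so the 2 are not read as a result about the members. Without that centring no member had an unadjusted p under 0.05, where 2.62% of tested genes were higher in Ftsj1_DF and 3.35% lower, and none an adjusted p of 0.05 in the authors' DESeq2 test, against 0.217% of tested genes (smallest 0.875). The lowest was Ndufb11, at -1.12 ± 0.73 in the authors' deposited spleen table. Ndufb1 followed at -1.06 ± 0.57 in the deposited table, and Ndufb2, also of the distal arm, was 0.499-fold in Ftsj1_DF relative to WT, with a 95% interval of 0.221 to 1.13. The highest were Ndufc1 at 1.04 ± 0.63, Ndufa12 at 1.03 ± 0.88 and Ndufb5 at 0.68 ± 0.47 in the deposited table. Ndufa7 and Ndufa5, of the N and Q modules, stood at -0.90 ± 0.55 and -0.79 ± 0.49 in it. Among core subunits, Ndufs8 stood at -0.44 ± 0.63 and Ndufv2 at 0.61 ± 0.48 in the authors' deposited table. Ndufb8, with a mean of 41.5 normalized tags, had no adjusted p there. Pancreatic acinar markers made up 14.4% of the spleen table's sum, with 1 of 7 tested markers positive and a median log2 fold change of -0.35, and their part in the members' values was not tested.

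The sign in spleen went with how many tags a member had. The members fell into a group of 14 with a mean over the 5 tables of at least 3000 normalized tags and a group of 23 tested members below it, and this division was set after the values were seen. In spleen 12 of the 14 were positive, at a median of 0.28, against 64.7% of all tested genes with such means. Of the members with fewer tags, 4 of 22 were positive, at a median of -0.52, against 46.9% of all tested genes with such means. Heart had the opposite order, with 6 of the 14 positive at a median of -0.15 (61.6% of all tested genes with such means) and 20 of the 23 at a median of 0.25 (48.9%). In the brain-named table both groups were mostly positive, 12 of 14 at a median of 1.23 (60.9% of all such genes) and 21 of 23 at a median of 0.80 (51.6%). The liver-named table had the order of spleen, with 11 of 14 positive at a median of 0.23 (66.2%) and 13 of 23 at 0.004 (43.7%). In kidney 4 of 14 were positive at a median of -0.21 (48%) and 10 of 23 at -0.03 (49.4%). Pearson's r was taken across members between the log2 fold change and the logarithm of the mean in that table alone, not over the 5 tables. It was 0.47 in spleen (n = 36 genes) and between -0.15 and 0.16 in the other 4 tables (n = 37 genes each). These genes share their libraries and are not independent replicates.

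**Figure D4:**
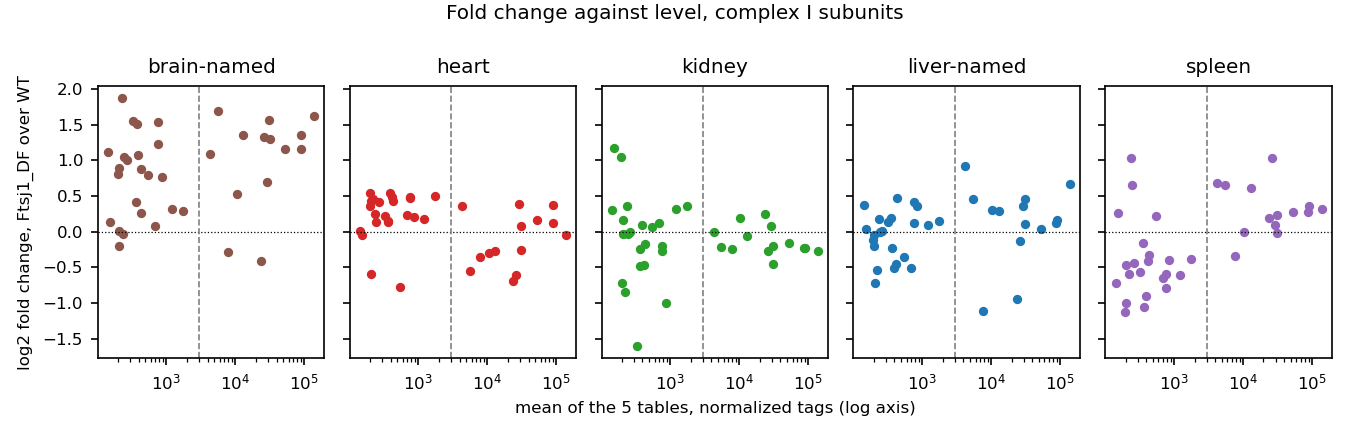
Log2 fold change, Ftsj1_DF over WT, of each tested member in 1 panel per table, against its mean over the 5 tables in normalized tags on a log axis; the dashed line marks 3000. In spleen 12 of 14 points right of the line lie above 0 and 4 of 22 left of it.

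The fold changes of the brain-named table were then set against those of the other tables, as a difference of log2 fold changes with a z test on the authors' standard errors, adjusted by Benjamini and Hochberg over all genes. In 3 of these 4 pairs the organs came from the same 6 mice, whose covariance is not known from the tables, and the pair with spleen is independent. The brain-named fold change was the larger one in 32 of 37 members against heart, 27 of 37 against kidney, 36 of 37 against the liver-named table and 33 of 36 against spleen. Of all genes, 55%, 53.9%, 55.5% and 54.2% had a positive difference in these pairs. Median differences were 0.74, 1.05, 0.83 and 0.90, beside 0.09, 0.09, 0.09 and 0.07 over all genes.

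Against kidney, 3 members passed an adjusted p of 0.05, where 1.3% of genes did. Ndufs6 differed by 3.14 ± 0.79 (adjusted p = 0.0123), Ndufa4 by 1.89 ± 0.52 (adjusted p = 0.0292) and Ndufb7 by 1.74 ± 0.48 (adjusted p = 0.0316), all with the larger log2 fold change in the brain-named table. At an unadjusted p under 0.05, 15 members had a positive difference against kidney, where 7.19% of genes did. Against heart, Ndufb3 passed, with a difference of 2.24 ± 0.60 (adjusted p = 0.0440), where 0.452% of genes did, and this call was lost when differences were centred on all genes. Positive differences from heart at an unadjusted p under 0.05 numbered 11, against 6.83% of genes. Against spleen no member passed (smallest adjusted p 0.438, for Ndufb1), where 0.0534% of genes did, and 8 had a positive difference at an unadjusted p under 0.05, against 3.77% of genes. Against the liver-named table no gene passed by this z test, which is 0% of genes, although 910 had an unadjusted p below 0.05. Of the members, 5 had a positive difference at that level, against 4.1% of genes. In the 6 pairs among the other tables, 0 members passed an adjusted p of 0.05 in this z test. At an unadjusted p under 0.05, between heart and kidney there were 2 of 37 members and 1615 of 17874 genes. The counts were 0 of 37 and 1453 of 18769 between heart and the liver-named table, and 5 of 36 and 1242 of 18788 between heart and spleen. Between kidney and the liver-named table they were 2 of 37 and 1858 of 18585, and between kidney and spleen 1 of 36 and 1370 of 18486. Between the liver-named table and spleen they were 0 of 36 and 1027 of 20017. Of all genes, 0.638% passed between heart and kidney, 0.165% between heart and the liver-named table and 0.117% between heart and spleen. The shares were 0.791% between kidney and the liver-named table, 0.411% between kidney and spleen and 0.0799% between the liver-named table and spleen.

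**Figure D5:**
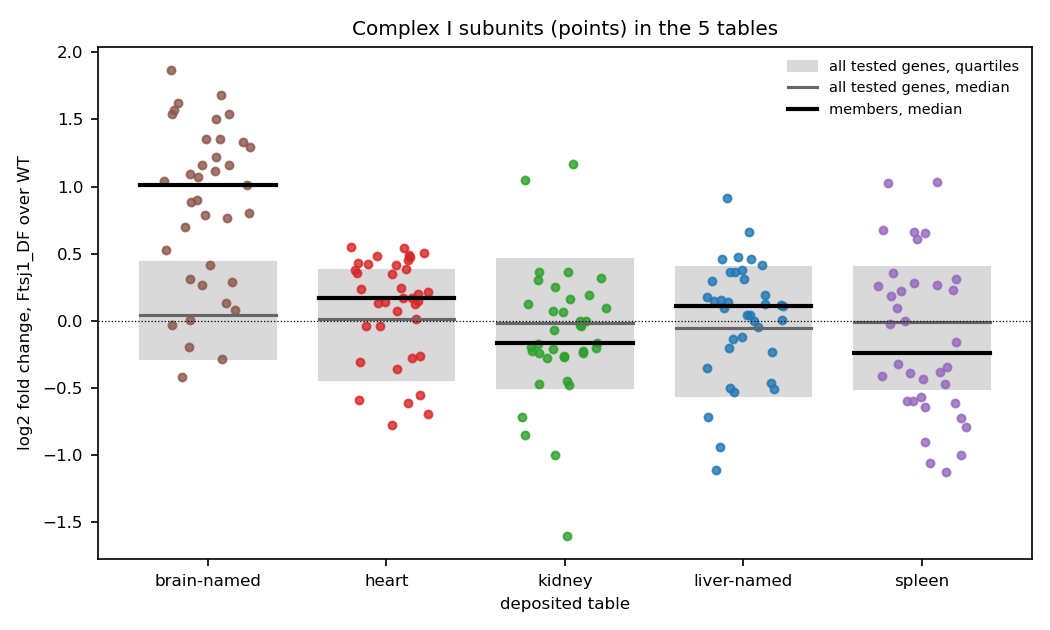
Log2 fold change, Ftsj1_DF over WT, of the tested members (points) in the 5 tables, with the members' median (black line) and the median and quartiles of all tested genes (grey line and box). The members' median is 1.01 in the brain-named table and lies between -0.24 and 0.17 in the other 4.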

How the data were processed

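Degradome tags of 32 libraries from 5 organs were compared by the authors between Ftsj1_DF and WT mice, and 1 table per organ was deposited. Per the submitters' processing notes, the build was GRCm39, with featureCounts, Subread 2.0.3 and DESeq2. The DESeq2 version and the fitted model are not given in the sources used here. The deposited mean is a signal, normalized by size factors and averaged over all libraries of an organ. The deposited fold change and standard error are on the log2 scale, the deposited Wald statistic is a score, and the p-values and adjusted p-values are the authors'. Each table's row without a gene name was left out. Depth per library is not known from these tables, so the authors' standard errors give the precision. Replicates are mice. The authors' p-values come from a Wald test of each fold change against its standard error, and do not themselves measure the spread between mice.

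Intervals are the log2 fold change plus or minus 1.96 standard errors. Shares are a gene's mean over the table's sum. Medians, counts, z tests of differences between tables (Benjamini-Hochberg) and motif matches were computed in Python 3.11.15 with pandas 2.3.3, numpy 2.4.6 and scipy 1.17.1. The z test was checked on simulated tables, drawn independently with normal noise of the deposited standard errors. That check does not cover organs of the same mice or a spread wider than the standard errors. A call is an adjusted p under 0.05. Named members are the nuclear core subunits, of which 1 is not reported here by itself, per table the 5 smallest p and the 3 highest and lowest fold changes, members that passed a test or had no adjusted p, and others described for their level or promoter, chosen after their values were seen. The members and all lists were chosen with earlier results of these data known. Alternatives covered the false discovery rate, a mean filter of 20, the background, centring, a robust rescaling of the statistic, the 20 highest genes, and Ndufab1.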

Additional observations from a re-analysis of the deposited data

Results flagged for a closer look

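Fold changes that differed between 2 organs by the z test were flagged for 4 members. The log2 fold change of Ndufs6 was larger in the brain-named than in the kidney table by 3.14 ± 0.79 (SE). Ndufa4 and Ndufb7 were larger in the brain-named than in the kidney table by 1.89 ± 0.52 and 1.74 ± 0.48. Ndufb3 was larger in the brain-named than in the heart table by 2.24 ± 0.60. The organs of each pair came from the same 3 Ftsj1_DF and 3 WT mice, and the test treats the tables as independent.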

How the results depend on the processing

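Of the 119 recomputed main results, 107 were labelled as the same. For counts this label meant a similar size, or 0 in both, and direction was not compared. For median fold changes it meant the same sign only. In heart the members' median was 0.16 above all tested genes and 0.05 above those with a mean of at least 1000, under that label. Shares of the sum were labelled as moved without a comparison of size. At a false discovery rate of 10%, 3 members were called in the brain-named table, Ndufa6, Ndufb3 and Ndufa4. With the Wald statistic rescaled, their adjusted p was 0.411, 0.449 and 0.471, so none of the 3 was called. With the Wald test centred on all tested genes it was 0.0895, 0.104 and 0.118, and only Ndufa6 stayed under 0.10. The count of members at an unadjusted p under 0.05 in heart was 2 (both lower in Ftsj1_DF) when centred on genes with a mean of at least 1000, 0 with the rescaled statistic and 2 with Ndufab1 added, and in spleen it was 2 (both lower) when centred in that way. Shares of all tested genes at that level were not computed for the centred and rescaled settings. The median of the genes with a mean of at least 1000 lay at 0.12 in heart, 0.12 in the liver-named table and 0.18 in spleen. Relative to that median the members' median in the liver-named table was -0.00639, the opposite sign. Without the 20 highest genes of each table, the members' share was 2.13% in heart, 0.971% in kidney and 0.744% in the brain-named table, with 0.494% in spleen and 0.525% in the liver-named table. The genes taken out included 2 members in heart and 1 in kidney. With differences between tables centred on all genes, an alternative chosen after seeing the data, 0 members were called between the brain-named and heart tables. The causes of these shifts were not tested. With the rescaled statistic, 14 members had an unadjusted p under 0.05 in the brain-named table. The share of all tested genes with that statistic was not computed. No paired analysis was possible because the tables hold no values per library, and for the same reason no library could be left out. The standard errors, with 3 or 4 mice per genotype, limit what single members can show.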
